A study of Homo sapiens with 8 samples.

Results

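The UGT1A cluster and 2 genes that supply its co-substrate, UGDH and UGP2, were followed in H3K27ac peak lists of A549 cells. Peaks of the 6 ChIP-seq libraries were merged wherever they shared at least 1 base, and a merged region was kept if it overlapped the body of UGT1A1, UGT1A3, UGT1A6, UGT1A9, UGT1A10, UGDH or UGP2 or lay within 20 kb of one (GENCODE, GRCh37). This gave 16 of 49186 merged regions, of which 12 lay in the UGT1A cluster, 2 at UGDH and 2 at UGP2. H3K27ac is histone H3 acetylated at lysine 27, a mark of active promoters and enhancers.

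A549 is a human lung adenocarcinoma line with a KEAP1 mutation, in which the transcription factor NRF2 accumulates. Cells received control siRNA (3 libraries) or siRNA against NRF2 (3 libraries) and were collected 48 h later. Replicate 1 of the NRF2 group had siRNA 28 and replicates 2 and 3 had siRNA 30. All groups shared the same line and antibody. The study describes the replicates as independent experiments, all in a single line.

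Glucuronidation attaches glucuronic acid to drugs, bilirubin, steroids and carcinogens so that they can be excreted. The UGT1A locus codes for several transferases from a single stretch of DNA: each isoform has its own promoter and first exon, which decides the substrates it accepts, and all share the exons at the 3′ end. UGP2 makes UDP-glucose and UGDH, UDP-glucose dehydrogenase, oxidises it to UDP-glucuronic acid, the sugar donor that every UGT1A enzyme uses. UGT1A genes are induced by xenobiotic sensors, among them the aryl hydrocarbon receptor and NRF2.

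The lists held 27941, 34747 and 41571 peaks in control siRNA replicates 1 to 3 and 23885, 34986 and 39108 in NRF2 siRNA replicates 1 to 3. They covered 64.7, 85.0 and 113 Mb of control and 46.3, 84.8 and 106 Mb of NRF2 siRNA chromatin. The longest list was thus a control and the shortest an NRF2 siRNA list, and read depth was not used here. Peak names of replicates 2 and 3 carry a flow cell identifier that replicate 1 lacks, and as replicate 1 was also the siRNA 28 pair, run and siRNA cannot be told apart. Starts of 4 of 5 epithelial genes (KRT8, KRT18, EPCAM and CDH1) were called in all 6 libraries and that of KRT19 in 2, whereas those of 3 alveolar type II, 4 leukocyte, 1 endothelial and 2 erythroid genes were called in 0. The hepatocyte gene APOA1 was called in 0 libraries and ALB in 2, NRF2 siRNA replicates 2 and 3. The start of NFE2L2, which encodes NRF2, was called in all 6 libraries, but siRNA acts on the mRNA, so this says nothing on the labels.

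With control siRNA the UGT1A cluster carried a pair of very long acetylated domains, over UGT1A6 and UGT1A5 and from far upstream of UGT1A1 to past its first exon, together with a shorter domain over UGT1A9. With NRF2 siRNA the calls at each of the 3 were interrupted or shorter in all 3 libraries. Control peaks covered 63771, 74067 and 82144 bases of the 176853-base window that runs from 20 kb before UGT1A10 to 20 kb past the shared last exon. NRF2 siRNA peaks covered 19308, 24307 and 34286 bases of it. The groups did not overlap: the means were 73327 ± 9209 and 25967 ± 7626 bases (SD, n = 3 each), so that 35.4% of the control length was left (exact permutation test, two-sided, p = 0.1, the smallest value that 3 against 3 libraries allow).

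**Figure D1:**
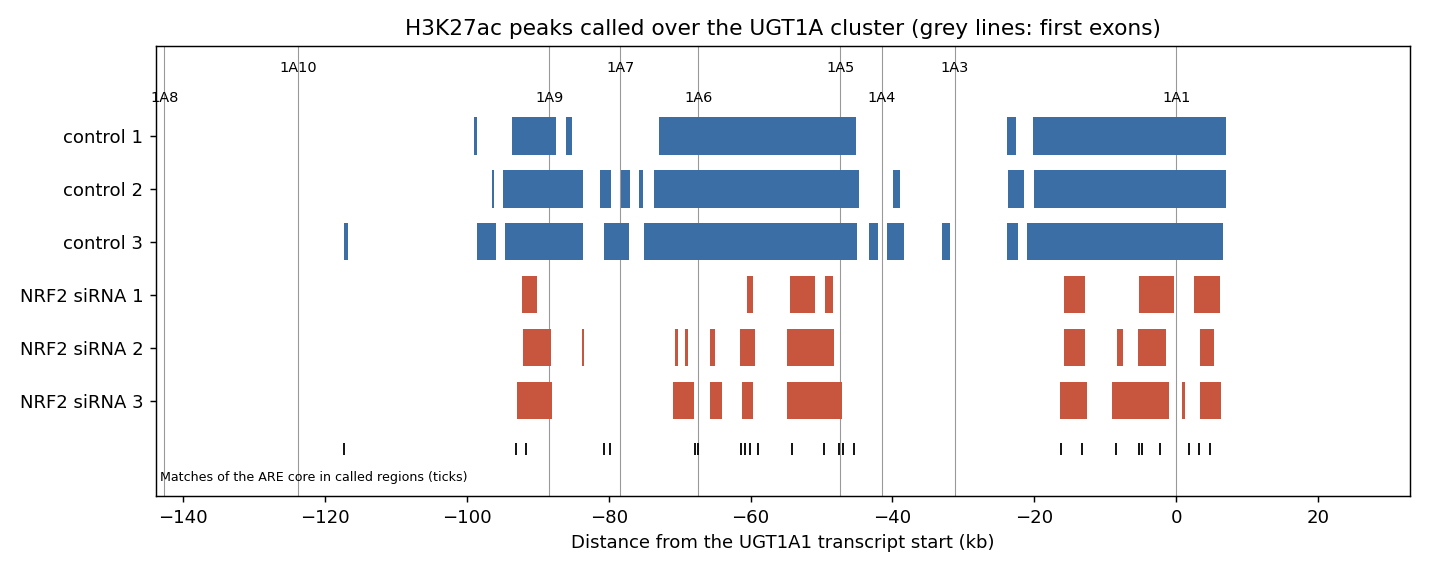
Peaks called in each library (rows) over the UGT1A cluster against distance in kb from the UGT1A1 transcript start. Blue bars are control siRNA, red bars NRF2 siRNA, grey lines the first exons of the isoforms and black ticks matches of the antioxidant response element (ARE) core; the long control domains are interrupted in all 3 NRF2 siRNA libraries.

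The covered length was lower within each replicate number. NRF2 siRNA left 30.3% of the paired control's covered length in replicate 1, 32.8% in replicate 2 and 41.7% in replicate 3 (exact permutation within pairs, p = 0.25, which is as low as 3 pairs can go). Control replicate 1 covered more of the cluster than NRF2 siRNA replicates 2 and 3, and its list was the shorter. With every list cut to its 23885 highest-fold peaks, the difference between group means was -42966 bases. With the full lists it was -47360 bases (exact permutation p = 0.1 for both). The part of read depth in the difference was not tested. Per Mb of peak length in a list, the cluster held 986, 872 and 725 bases with control siRNA and 417, 287 and 324 with NRF2 siRNA, again without overlap (means 861 ± 131 and 343 ± 67.0, SD, n = 3 each, exact permutation p = 0.1).

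The groups were apart in the length of the peaks and overlapped in their number. The longest peak of the cluster measured 27816, 28805 and 30048 bases in the control libraries. In the NRF2 siRNA libraries it measured 4870, 6618 and 8103 bases, which is 22.6% of the control mean (28890 ± 1118 against 6530 ± 1618 bases, SD, n = 3 each, exact permutation p = 0.1). Control libraries had 6, 9 and 10 peaks in the window and NRF2 siRNA libraries 7, 11 and 9, so that the groups overlapped (exact permutation p = 0.8). The broad-peak mode of MACS2 joins neighbouring enriched stretches across weaker ones, and the length of a call therefore depends on the signal between them as well as on depth.

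**Figure D2:**
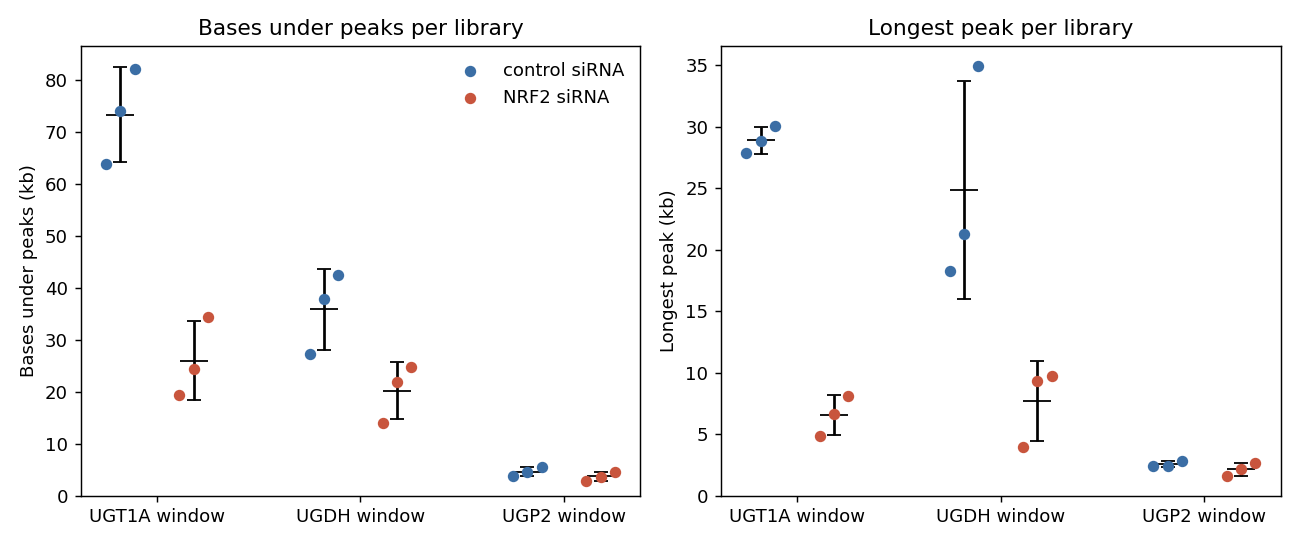
Bases under peaks (left) and longest peak (right), both in kb, in the UGT1A, UGDH and UGP2 windows of each library. Points are the 3 libraries of a group, horizontal bars the mean and error bars the SD; the groups are apart at UGT1A and UGDH and overlap at UGP2.

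Each isoform's first exon was then checked for a peak. Of the 9 first exons, control libraries had a peak on 4, 5 and 6, and NRF2 siRNA libraries on 0, 1 and 3. Within 1 kb of the 9 starts the counts were 4, 5 and 7 against 2, 2 and 4. On this wider measure NRF2 siRNA libraries still had a peak in 3 of 3 at UGT1A5 and in 2 of 3 at UGT1A1. Shares over all first exons of the genome were not counted. UGT1A6, which conjugates small planar phenols, had its canonical first exon (chr2:234601536-234602511) wholly covered in 3 of 3 control libraries and untouched in 3 of 3 NRF2 siRNA libraries. UGT1A1, the enzyme of bilirubin conjugation, had its first exon (chr2:234668916-234669797) covered over all 882 bases in the 3 control libraries, and over 0, 0 and 37 bases with NRF2 siRNA. Those 37 bases belonged to a weak peak in the 1.90th percentile of its list.

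UGT1A9, a transferase of phenols and fatty acids, was still called in part. Its first exon (chr2:234580544-234581435) was covered over all 892 bases with control siRNA and over 0, 243 and 314 bases with NRF2 siRNA. At UGT1A5 (chr2:234621553-234622504) the 952 bases were covered in 3 control libraries, against 0, 0 and 223 bases. The first exon of UGT1A7 was reached in 2 control and 0 NRF2 siRNA libraries and that of UGT1A4 in 1 and 0. Those of UGT1A3, UGT1A8 and UGT1A10 had a peak in 0 of 6 libraries. Of the shared exons, the exon next to the first introns (chr2:234675680-234675811) was called in 2 control and 0 NRF2 siRNA libraries, and the 3 that follow it in 0.

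The 250 bases before the transcript start are printed for 3 of the 4 isoforms whose start lay in a domain called in all controls and only partly called with NRF2 siRNA, and the window of the other, UGT1A6, is left out because it overlaps an annotated untranslated exon (RefSeq, GRCh38.p14, each matched once to GRCh37, whose coordinates are given, plus strand). Capitals mark the ARE core TGACNNNGC, to which NRF2 binds, the xenobiotic response element core GCGTG, to which the aryl hydrocarbon receptor binds, or the TATA box letters TATAAA, on either strand.
UGT1A9, chr2:234580294-234580543: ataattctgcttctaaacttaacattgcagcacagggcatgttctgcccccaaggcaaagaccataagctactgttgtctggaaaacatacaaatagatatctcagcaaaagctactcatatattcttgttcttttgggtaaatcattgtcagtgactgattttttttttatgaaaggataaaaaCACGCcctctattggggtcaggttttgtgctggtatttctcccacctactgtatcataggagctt
UGT1A5, chr2:234621303-234621552: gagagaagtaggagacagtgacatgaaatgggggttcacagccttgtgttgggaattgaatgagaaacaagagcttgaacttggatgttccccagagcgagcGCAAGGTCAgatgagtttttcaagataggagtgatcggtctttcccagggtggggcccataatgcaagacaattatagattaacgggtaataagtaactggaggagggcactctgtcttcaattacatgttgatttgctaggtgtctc
UGT1A1, chr2:234668666-234668915: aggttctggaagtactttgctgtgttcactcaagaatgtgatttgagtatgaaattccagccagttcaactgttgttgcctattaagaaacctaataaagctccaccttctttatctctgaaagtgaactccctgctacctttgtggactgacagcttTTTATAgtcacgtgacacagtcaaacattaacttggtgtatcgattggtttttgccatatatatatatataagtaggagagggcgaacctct

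UGT1A9 has a GCGTG match, UGT1A5 an ARE core match and UGT1A1 a TATAAA match, the last on the minus strand. Over 35116 RefSeq promoters of the same length, 10.9% hold TGACNNNGC, 32.2% hold GCGTG and 10.7% hold TATAAA, so such matches are common and describe the letters only. The UGT1A1 stretch was under a peak in 3 control and 0 NRF2 siRNA libraries. The UGT1A5 stretch was called in 3 and 1, and the UGT1A9 stretch in 3 and 2. The promoter window of UGT1A6 (chr2:234600098-234600347), which lies before a further annotated start, holds a GCGTG match and was called in 3 control libraries and in NRF2 siRNA replicate 3.

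At single bases, 62741 bases of the cluster were called in all 3 control libraries. Of these, 26420 bases (42.1%) were called in 0 NRF2 siRNA libraries and 16270 (25.9%) in all 6. Over the genome the same shares were 4.11% and 64.9%. No base of the cluster was called in all 3 NRF2 siRNA libraries and 0 controls. Over the genome 831677 of the 42835740 bases called in all 3 NRF2 siRNA libraries were so. These 26420 bases formed 14 stretches, 2 of which held the first-exon start of an isoform, that of UGT1A6 (chr2:234600981-234603129) and that of UGT1A1 (chr2:234668594-234669760). The longest of them, 4444 bases at chr2:234609584-234614027, lay between UGT1A6 and UGT1A5, 7525 bases upstream of the UGT1A5 start.

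In the cluster 7 stretches stayed under a peak in all 6 libraries. None of the 7 held the first-exon start of any of the 9 isoforms. The longest, chr2:234663724-234667546, ended 1369 bases upstream of UGT1A1, and the next, chr2:234614523-234618006, ended 3546 bases upstream of UGT1A5. The others lay 1740 bases upstream of UGT1A9, 985 bases upstream of UGT1A5, 6807 bases inside UGT1A6, 12832 bases upstream of UGT1A1 and 3318 bases inside UGT1A1. With NRF2 siRNA, acetylation was thus still called in upstream and intronic parts of the cluster in each library. Starts of entries not annotated as protein-coding also lay in the long domains. These were DNAJB3, UGT1A2P and unnamed entries in that over UGT1A1, and an unnamed entry in that over UGT1A6 and UGT1A5. Their places relative to these stretches were not examined.

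The ARE core was looked for on both strands in these stretches, and 4 matches are printed with 30 bases on each side, each on the strand of its match with the core in capitals. The first and second lie in the stretch at the UGT1A6 start that NRF2 siRNA libraries did not call, the last 2 in stretches called in all 6 libraries upstream of UGT1A1.
UGT1A6, chr2:234601029-234601097, minus strand: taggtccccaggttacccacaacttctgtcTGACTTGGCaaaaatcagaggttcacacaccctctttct
UGT1A6, chr2:234601408-234601476, plus strand: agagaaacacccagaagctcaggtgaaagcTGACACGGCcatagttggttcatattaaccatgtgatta
UGT1A1, chr2:234663999-234664067, plus strand: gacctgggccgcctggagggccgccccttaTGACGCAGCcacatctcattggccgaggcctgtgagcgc
UGT1A1, chr2:234666612-234666680, minus strand: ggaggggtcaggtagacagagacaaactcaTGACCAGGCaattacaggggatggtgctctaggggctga

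All 4 are matches of the loose core alone. The 16 regions held 40 core matches in 9 regions, 0.298 per kb against 0.396 per kb in all merged regions. In the UGT1A, UGDH and UGP2 windows together, stretches called in all 6 libraries had 0.427 matches per kb (14 matches) and those called in 3 controls and 0 NRF2 siRNA libraries 0.256 per kb (8 matches). The stricter TGACTCAGC, a form found at many NRF2 sites, occurred in 0 of the 16 regions. It was found in 55.1% of merged regions whose width was within 10% of that of the UGT1A6 region, and in 48.5% of those like the UGT1A1 region.

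Rank within the list was the other measure. Each region took the highest fold enrichment of its peaks, as a percentile among the peaks of that library. The region over UGT1A6 and UGT1A5 (chr2:234593893-234624169, 30277 bases) stood at percentiles 93.3, 93.6 and 93.0 with control siRNA and at 79.8, 68.9 and 65.6 with NRF2 siRNA. The 3 control values lay within 1 point of each other and all NRF2 siRNA values below them, with replicate 1 the highest of them. The region over UGT1A1 (chr2:234647855-234675977) stood at 94.2, 88.4 and 87.2 against 85.4, 80.2 and 82.9, also without overlap but by a smaller step. The UGT1A9 region (chr2:234574049-234585450) stood at 90.1, 85.9 and 83.3 against 84.5, 89.7 and 82.1, and these groups overlapped.

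The remaining UGT1A region called in at least 3 libraries, chr2:234645024-234647454 in the introns downstream of the UGT1A3 first exon, was low in the control lists (percentiles 35.4, 24.6 and 16.5) and uncalled in all 3 NRF2 siRNA lists. It was 1 of 9 regions of the cluster called in 0 NRF2 siRNA libraries, and over the genome 18.9% of merged regions were so. The other 8 had a peak in only 1 or 2 control libraries and lay around UGT1A10, UGT1A9, UGT1A7, UGT1A4 and UGT1A3. Over the genome 2.27% of regions were called in 3 control and 0 NRF2 siRNA libraries. Of all 16 regions, 0 were called only with NRF2 siRNA. The share over all merged regions was not counted for this, so nothing is read from it.

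**Figure D3:**
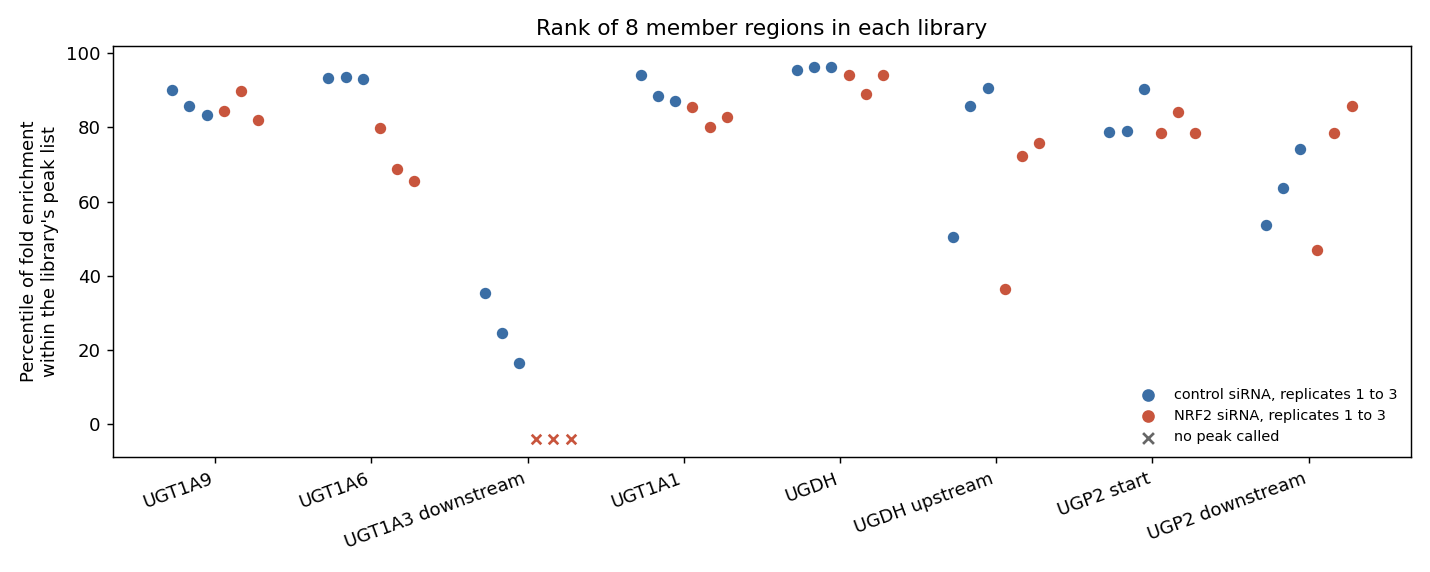
Percentile of each region's highest fold enrichment within the peak list of a library, for the 8 member regions called in at least 3 libraries. Points run from replicate 1 to 3 in each colour and crosses mark libraries without a peak; UGT1A6 shows the widest gap between groups among regions called in all 6 libraries.

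To test ranks, the 32673 regions called in at least 3 libraries were ranked in every library, ranks were turned into normal scores and limma was fitted over all of them with Benjamini-Hochberg adjustment at 0.05. Of the 16 member regions 8 entered this test, and 0 were lower and 0 higher with NRF2 siRNA, where 3.39% of all regions tested were lower, 2.01% higher and 5.4% either. At an unadjusted p under 0.05 there was 1 of 8, against 22.5% of all regions. The score difference (NRF2 siRNA minus control) was -0.88 ± 0.26 (SE) at UGT1A6 (limma adjusted p = 0.082), -0.85 ± 0.38 downstream of UGT1A3 (0.230), -0.29 ± 0.25 at UGT1A1 (0.544) and 0.02 ± 0.24 at UGT1A9 (0.978). The region downstream of UGT1A3 entered the test through its 3 control calls alone, so the direction of its difference was fixed by the filter. The score was lower in 6 of the 8 regions and higher in 2. The median difference was -0.28, against 0.02 over all regions tested.

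The replicate numbers were taken as pairs, and with the replicate as a block 2 member regions passed. In the blocked fit 6.62% of all regions were lower and 5.72% higher. The 2 were UGT1A6 (limma adjusted p = 0.032), lower in all 3 pairs, and the region downstream of UGT1A3, which could only be lower and whose call is no support. The pair changes at UGT1A6 were -0.49 with siRNA 28 and -1.03 and -1.10 with siRNA 30. Without NRF2 siRNA replicate 1, the only siRNA 28 library, the UGT1A6 region also passed without the block (-1.12, limma adjusted p = 0.019). It did not pass when any other library was left out (limma adjusted p between 0.155 and 0.252).

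At UGDH the calls were shorter with NRF2 siRNA, mostly inside the gene, while its start stayed called in a peak of lower rank. UGDH lies on the minus strand (chr4:39500375-39529931), and its region, chr4:39496759-39532122, held the start and the start of the antisense gene UGDH-AS1. Peaks covered 27181, 37903 and 42379 bases of the UGDH window in control and 14033, 21838 and 24773 bases in NRF2 siRNA libraries. The groups did not overlap, and 56.4% of the control length was left (35821 ± 7810 against 20215 ± 5551 bases, SD, n = 3 each, exact permutation p = 0.1). The pairs kept 51.6, 57.6 and 58.5%.

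The longest UGDH peak measured 18274, 21296 and 34894 bases with control siRNA and 3932, 9346 and 9757 bases with NRF2 siRNA. The number of peaks in the window was 4, 4 and 2 with control siRNA and 5 in each NRF2 siRNA library. In contrast to UGT1A1 and the canonical start of UGT1A6, the UGDH start stayed under a peak in all 6 libraries: the stretch chr4:39527825-39531019 was called throughout. The 4891 bases called in 3 controls and 0 NRF2 siRNA libraries made up 18.0% of the bases called in all controls and fell into 7 stretches. The largest of them, chr4:39513027-39514847, lay 15083 bases inside the gene.

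The highest peak of the UGDH region also kept a high rank. Percentiles were 95.4, 96.5 and 96.4 with control siRNA and 94.1, 89.1 and 94.3 with NRF2 siRNA. They did not overlap, but the score difference of -0.26 ± 0.21 (SE) did not pass (limma adjusted p = 0.518). With control siRNA the highest peak held the UGDH start. With NRF2 siRNA it lay inside the gene, and the peak over the start stood at percentiles 76.8, 70.5 and 72.7. With fold averaged over the peaks by length, in place of the highest, the score difference was -0.74 (limma adjusted p = 0.067). The region upstream (chr4:39539250-39546734) varied more between replicates than between groups, with 50.5, 85.8 and 90.6 against 36.5, 72.3 and 75.7 and a score difference of -0.38 ± 0.28 (limma adjusted p = 0.466).

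At UGP2 the groups overlapped in every measure taken. The gene has a promoter region (chr2:64067554-64070322) and a region inside the gene, each called as 1 peak in all 6 libraries, the latter 29808 bases from the start. Peaks covered 3733, 4617 and 5569 bases with control siRNA and 2895, 3668 and 4629 bases with NRF2 siRNA. These overlapped, with means of 4640 ± 918 and 3731 ± 869 bases (SD, n = 3 each, exact permutation p = 0.3), and each NRF2 siRNA library was below its paired control. Of the bases called in all 3 controls, 0% was uncalled in every NRF2 siRNA library.

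**Figure D4:**
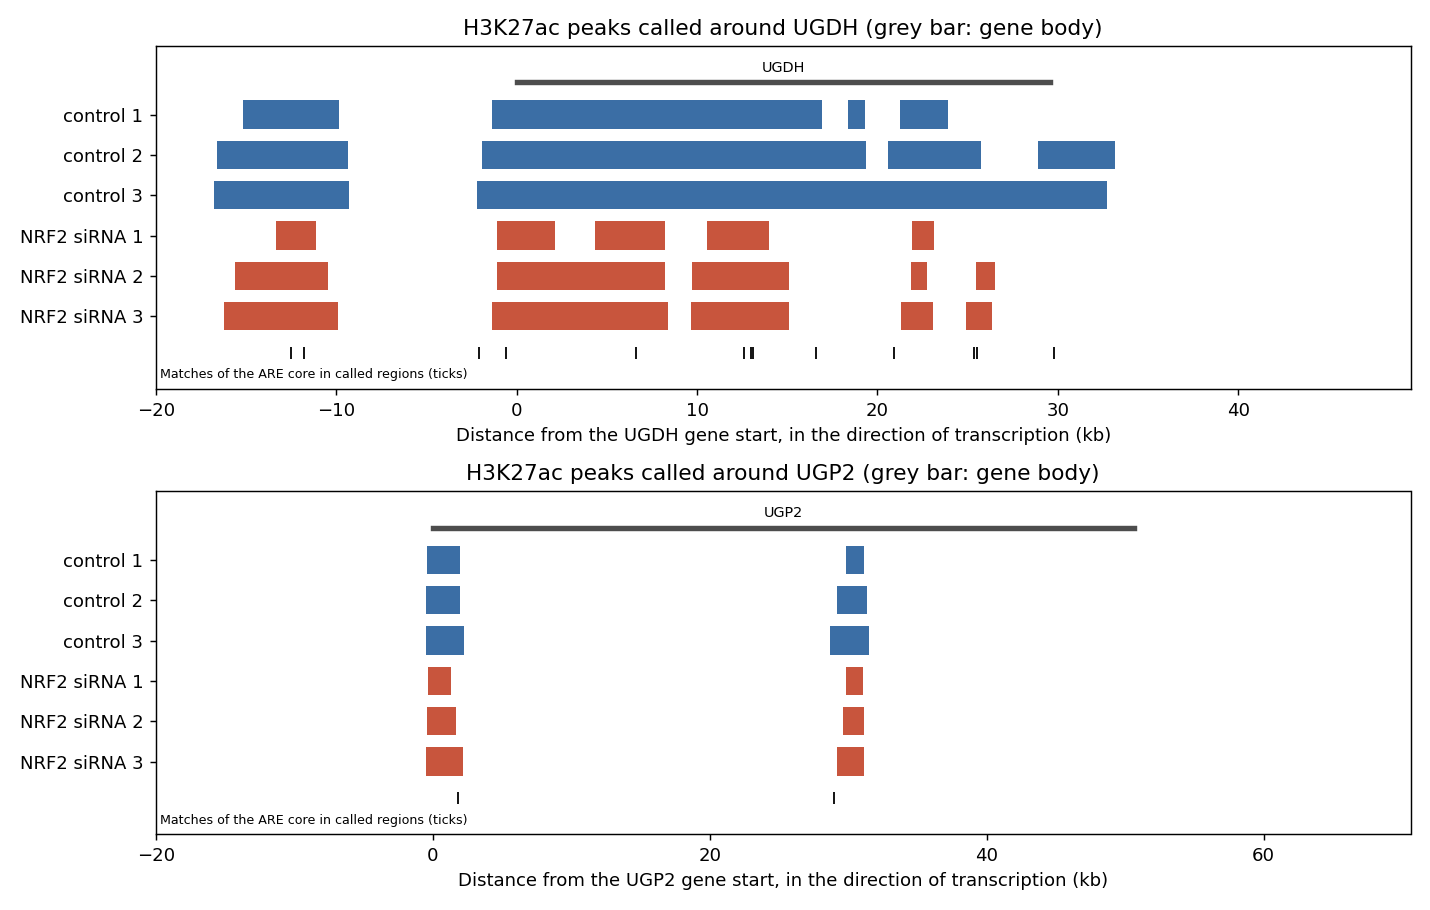
Peaks called in each library around UGDH (top) and UGP2 (bottom) against distance in kb from the gene start in the direction of transcription. Blue bars are control siRNA, red bars NRF2 siRNA, the grey bar the gene body and black ticks matches of the ARE core; the UGDH body is interrupted with NRF2 siRNA, and both UGP2 regions stay.

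The ranks of UGP2 overlapped as well. The promoter stood at percentiles 78.8, 78.9 and 90.3 against 78.4, 84.1 and 78.4, a score difference of -0.06 ± 0.21 (SE, limma adjusted p = 0.897). The region inside the gene (chr2:64096744-64099588) stood at 53.8, 63.7 and 74.3 against 46.9, 78.6 and 85.8, and its score was higher in all 3 pairs, by values between 0.06 and 0.51. The difference of 0.33 ± 0.22 did not pass (limma adjusted p = 0.412).

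Percentiles of the 7 member regions called in all 6 libraries were apart, and lower with NRF2 siRNA, in 3 (UGT1A6, UGT1A1 and UGDH), where 11.3% of all 16845 regions called in 6 libraries were so, and higher in 0, where 8.85% were. Their covered length was apart and lower in 4 of the 7, against 7.65% of the 16845. For long domains, 1928 regions of at least 10 kb called in all 6 libraries served as background. Their median covered length with NRF2 siRNA was 89.5% of that with control siRNA. Groups were apart and lower with NRF2 siRNA in 8.92% of them and apart and higher in 0.726%. All 4 member regions of this width were apart and lower, and kept 34.8% (UGT1A6), 37.8% (UGT1A9), 44.7% (UGT1A1) and 53.7% (UGDH). Their longest NRF2 siRNA peaks measured 7748, 4807, 8103 and 9757 bases in that order. They thus passed the 10 kb filter through control peaks, which favours lower values with NRF2 siRNA. Their place among the wide regions is a description and no support.

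**Figure D5:**
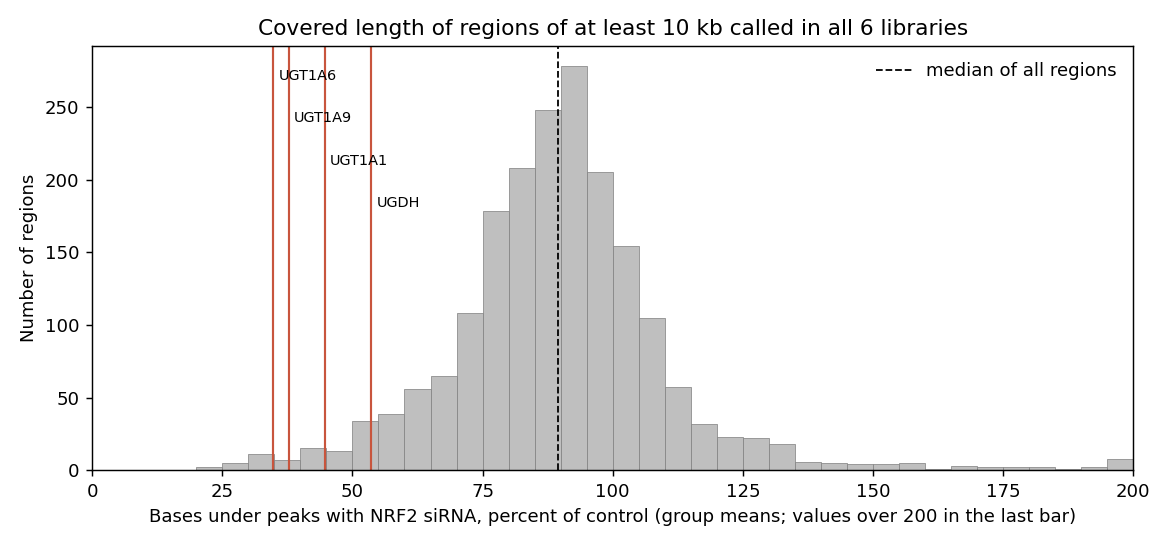
Number of regions of at least 10 kb called in all 6 libraries (vertical) by bases under peaks with NRF2 siRNA as a percentage of control (horizontal, ratio of group means). Red lines mark the 4 member regions at 34.8, 37.8, 44.7 and 53.7%, left of the dashed median at 89.5%.

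From the lowest, the covered lengths of these member regions held ranks 18, 20, 39 and 72 of 1928. The longest peak of a region was apart and lower in 8.45% of the 1928. It was 20.6% of control at UGT1A6 and 20.8% at UGT1A1, which were the 6th and 7th lowest values, to 30.9% at UGDH and to 38.0% at UGT1A9. The median over the 1928 was 86.7%.

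A fit over genes gave the same order without passing. The share of peak length was computed for 15526 coding-gene windows of the gene body and 20 kb on each side, with the UGT1A isoforms as 1 window, and its log2 (with 10 bases per Mb added) was tested with limma, a test added after the peaks had been seen. The difference was -1.31 ± 0.22 (SE) for the UGT1A window (limma adjusted p = 0.0699), -0.63 ± 0.18 for UGDH (0.266) and -0.10 ± 0.20 for UGP2 (0.944). The UGT1A difference was as low in 0.927% of windows. In the fit 0.219% of windows passed as lower and 0.0644% as higher, and groups of covered length were apart and lower in 7.26%. The UGT1A window passed when all lists were cut to 23885 peaks (limma adjusted p = 0.0272). It did not pass with the replicate block (0.102), at q-values of at most 1e-05 (0.713) or with 1 base per Mb added (0.151). Leaving out a library gave limma adjusted p between 0.0595 and 0.349.

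The rest of the pathway was read from 43 genes, which had 169 regions, 114 of them tested. In the rank test 9 were lower and 0 higher with NRF2 siRNA, where 3.39% and 2.01% of all regions were, and 13 and 2 with the replicate block, where 6.62% and 5.72% were. Of the 9, 3 (at PPARA and near SLC35A3 and AHR) were called in 3 controls and 0 NRF2 siRNA libraries, and thus entered the test in this direction only. Without control siRNA replicate 2 the count was 0 of 114, as it was over all regions, and without control siRNA replicate 3 it was 1, so no call named below held in every fit. The median difference over the 114 was -0.13. By group, 0 of 16 regions of other UDP-glycosyltransferases passed, 2 of 28 of UDP-sugar supply, 1 of 10 of nucleotide sugar transporters, 0 of 13 of glucuronic acid transfer and breakdown, 4 of 13 of glucuronide export and 2 of 34 of UGT1A regulators, all of them lower.

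Among the export genes, ABCC2 (MRP2), which pumps glucuronides into bile, fell at its start region from percentiles of 99.996, 99.994 and 99.995 to 98.9, 99.6 and 99.9, a score change of -1.11 ± 0.24 (SE, limma adjusted p = 0.032). ABCG2, an exporter of conjugates and drugs, fell by 1.58 ± 0.21 at its highest-ranked region, from 99.5, 99.2 and 99.5 to 59.5, 86.3 and 87.3 (limma adjusted p = 0.0095), and 2 more of its regions passed. ABCC3 (MRP3), which exports glucuronides to the blood side, differed by 0.12 ± 0.19 (limma adjusted p = 0.780).

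Among genes that supply or use UDP-sugars the highest-ranked regions near PGM1 (phosphoglucomutase, 1.28 ± 0.34, limma adjusted p = 0.065) and GALT (-0.88 ± 0.36, 0.188) differed most. The former lies outside the PGM1 gene, in no coding gene, and the latter holds the start of an unnamed neighbouring gene. With the replicate block the region near PGM1 passed as higher (0.012). A start region of GBE1 (glycogen branching enzyme) had a score difference of -1.29 ± 0.21 (limma adjusted p = 0.013) and an intronic region of UXS1 one of -1.35 ± 0.23 (0.017). Both genes also had a region of higher rank that did not pass, and these regions were named after their values had been seen. UXS1 turns UDP-glucuronic acid into UDP-xylose, and is thus a consumer of the UGDH product.

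Of the other transferases, UGT2B10 differed by -0.94 ± 0.25 (SE, limma adjusted p = 0.063, 0.034 with the block) and UGT2B17 by 0.47 ± 0.24 (0.282). Among the highest-ranked regions of the nucleotide sugar transporters, SLC35B1 (0.39 ± 0.21, 0.316) and SLC35A3 (-0.24 ± 0.20, 0.517, in a region that holds the MFSD14A start) differed most. Among those of the glucuronic acid genes GLCE (0.83 ± 0.27, 0.110, and 0.039 with the block) and CRYL1 (0.53 ± 0.22, 0.187) did. Lower-ranked regions differed more near SLC35A3 (-2.27 ± 0.30, limma adjusted p = 0.0093, called in controls alone) and near DCXR (-0.96 ± 0.27, 0.070). Of the regulators, PPARA was called at its start in 3 control libraries (percentiles 69.6, 56.1 and 66.2) and 0 NRF2 siRNA libraries, and NR1I2 differed by 0.38 ± 0.32 (limma adjusted p = 0.544).

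The start regions most like the UGT1A6 region over the 6 scores were those of AKR1C2 (Euclidean distance 0.467), SLC23A1 (0.530), MTMR2 (0.563), ACOT13 with TDP2 (0.574) and TNPO1 (0.599), out of 10878 coding start regions with a median distance of 2.39. AKR1C2, an aldo-keto reductase of steroids, stood at percentiles 93.5, 94.2 and 95.4 with control siRNA and 78.8, 78.4 and 74.6 with NRF2 siRNA. The 6 libraries are shared by all these regions, so the distance is a description.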

How the data were processed

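H3K27ac ChIP-seq of A549 cells was analysed from the deposited peak lists of 3 control siRNA and 3 NRF2 siRNA libraries; 2 input samples were not analysed here. The authors trimmed reads with cutadapt 1.15, aligned them to hg19 with Bowtie2 2.2.6, filtered them on mapping quality (SAMtools), ran MACS2 2.1.0.20151222 in broad mode on each library and took out blacklisted regions (bedtools) (versions from the submitters' processing notes). Each deposited list gives per peak a fold enrichment (a ratio to the local background, 1 value for a whole peak), −log10 p and −log10 q (p-values and q-values on a log scale) and an integer score. Whether an input served as background was not stated. The lists hold no counts, so no counting interval can be given, and fold values were compared only as ranks within a list.

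Chromosome names and lengths matched GRCh37 for 24 chromosomes, 10 contigs were not found and 0 regions ran past an end. Genes came from GENCODE 44 lifted to GRCh37. Libraries were grouped by their labels. Normal scores of within-list ranks (highest fold of a region; an uncalled region takes the tied lowest rank) and log2 window shares were fitted with limma 3.58.1 in R 4.3.3. Single values per library were compared by exact two-sided permutation in scipy 1.17.1 (Python 3.11.15, pandas 2.3.3). On simulated data for NRF2 siRNA against control over 32673 regions, 65% of 200 shifts of 2 score units were recovered with 6 false calls. Of 1-unit shifts 0% were recovered. Over 15526 windows, 70.5% of log2 shifts of 2 were recovered with 10 false calls, and of log2 shifts of 1 0%. The simulated noise was independent between libraries, and fewer regions were shifted than the 1765 that passed in the data. The region shares therefore set no detection limit for the real fit.

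Replicate numbers in the titles were taken as pairs. Deviations from the group means correlated at r = 0.398, 0.199 and 0.363 for pairs 1, 2 and 3. Correlations across different numbers were not computed, so these values do not show which libraries belong together. No pair of lists shared more than 1 identical peak. The members and gene lists were chosen with earlier results of these data known. Named were every member region called in at least 3 libraries, each UGT1A first exon, the highest-ranked region by mean percentile of a pathway gene (an uncalled library counting as 0) where it passed or was among the 2 largest changes of its group, and the 5 coding start regions nearest to the UGT1A6 region in score. Promoters came from RefSeq; an entry for UGT1A10 was not used here. Alternatives were the replicate block, equal list lengths, both together, q-values of at most 1e-05, merging within 1000 bases, other region filters, length-weighted fold, a trended robust variance, windows of 5 and 100 kb and leaving out each library. The window fit and the backgrounds of wide regions and of single bases were added after the data were seen.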

Additional observations from a re-analysis of the deposited data

Results flagged for a closer look

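At the UGT1A9 region the score change of the siRNA 28 pair differed in sign from both siRNA 30 pairs, of which replicate 3 hardly moved. The score changed by -0.14 in the siRNA 28 pair and by 0.19 and 0.00191 in the siRNA 30 pairs. By percentile, replicate 3 went from 83.3 to 82.1, and thus down like the siRNA 28 pair (90.1 to 84.5). The difference between the siRNAs was not tested, with 1 pair for siRNA 28, and groups of 3 libraries were not examined for outlying samples.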

How the results depend on the processing

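The covered length and the share of peak length of the UGT1A window stayed lower with NRF2 siRNA under every alternative tried. The difference in covered length ranged from -70249 to -42952 bases, from -52139 to -42952 when a library was left out, and the share from -759 to -456 per Mb, from -586 to -456 when a library was left out. The replicate block left the difference of means as it was (-47360 bases and -518 per Mb, exact paired p = 0.25). Member regions counted as lower numbered 2 with the replicate block, 1 with the block and equal list lengths, 1 with length-weighted fold, 1 with the trended robust variance, 2 within 100 kb and 0 to 1 without a library (1 without NRF2 siRNA replicate 1); 0 were higher throughout. Over all regions 1108 were lower and 657 higher. Lower counts were 2164 with the block, 2041 with the block and equal lists, 451 at q-values of at most 1e-05, 369 with regions called in 6 libraries and 0 to 1716 without a library. Higher counts were 1868, 2151, 263 and 341 in that order, 1185 with equal lists, 427 with no filter, 1175 with the trended robust variance and 0 to 882 without a library. Both were 0 without control siRNA replicate 2. Higher counts were also only 6 without control siRNA replicate 3 and 7 without NRF2 siRNA replicate 2. The background shares thus depended on which libraries were in the fit. Without NRF2 siRNA replicate 1, 1716 were lower, and without the other 4 libraries between 101 and 573. Pathway regions were lower in 14 with the block and equal lists, 5 at the stricter q-value, 3 with regions called in 6 libraries and 0 to 10 without a library (0 without control siRNA replicate 2), and higher in 2 with the block, 2 with equal lists, 2 with both, 1 with the trended robust variance and 0 to 1 without a library. Leaving out a library turned the sign of the score change at the UGP2 start (-0.15 to 0.0547, 0.0316 without control siRNA replicate 3 and 0.0547 without NRF2 siRNA replicate 3) and at UGT1A9 (-0.13 to 0.17, -0.13 without control siRNA replicate 3 and -0.06 without NRF2 siRNA replicate 1 or 2); neither passed in any fit. The causes were not tested. The length of a called peak can depend on read depth, which the lists do not hold and which was not used here.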

Other observations

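Between 20 and 100 kb from a member gene, 17 further regions were tested and 2 passed, both lower with NRF2 siRNA, where 3.39% of all regions tested were lower (6.62% with the replicate block). One lay in the body of USP40, a ubiquitin-specific protease gene upstream of the UGT1A cluster (chr2:234459267-234469629), with a score change of -1.23 ± 0.23 (SE, limma adjusted p = 0.023). The other lay in LIAS, the lipoic acid synthetase gene next to UGDH (chr4:39466246-39473362), with a change of -1.30 ± 0.22 (limma adjusted p = 0.017). Both also passed with the replicate block (limma adjusted p = 0.010 and 0.0085). Without control siRNA replicate 2 neither passed, as 0 regions over all did.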
